A study of Homo sapiens with 9 samples.

Results

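Endothelial chemokines are described here through 10 genes, CCL2, CCL5, CXCL1, CXCL2, CXCL3, CXCL10, CXCL11, CXCL12, CXCL16 and CX3CL1, taken by symbol from the 29740 genes of the deposited count table. Of these, 6 passed the filter on low counts and were tested among 14740 genes, namely CCL2, CCL5, CXCL1, CXCL2, CXCL12 and CXCL16. The other 4 (CXCL3, CXCL10, CXCL11 and CX3CL1) were too weakly expressed to be tested and are given as raw counts. The RNA came from HMEC-1, an immortalised line of human dermal microvascular endothelial cells, and was sequenced as 9 total RNA libraries in 3 groups of 3. The groups were CTRL (untreated), TMAO 24H and TMAO 48H, the last pair having received trimethylamine N-oxide (TMAO), a metabolite made from gut bacterial products, at 50 µM for 24 or 48 hours in medium low in serum. The study asked how the response of endothelial cells to TMAO differs between these time-points. The labels give no time for the CTRL libraries, and by the study's account untreated controls of both time-points were pooled for sequencing. With no control of its own at either time-point, time in culture cannot be told apart from TMAO in either comparison with CTRL, nor in that of 48H with 24H. All 9 libraries are of 1 cell line.

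Chemokines are small secreted or membrane-bound proteins that guide leukocytes along a gradient by binding G protein-coupled receptors. Endothelial cells both make them and display them on heparan sulphate at the luminal surface, where rolling leukocytes are arrested. Many are switched on by NF-kB after inflammatory signals, a subset depends on interferon, and CXCL12 is made without such signals and retains cells that carry CXCR4.

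The libraries held between 25205756 and 36927373 counts. Ribosomal RNA genes took 31.5% of the counts of TMAO 24H replicate 1 and 1.64% to 7.46% of those of the other libraries, and this library is named below wherever a call rests on it. Values are given as normalised counts, that is, counts divided by the library's effective size relative to the geometric mean over the 9 libraries. Each of the 15 endothelial markers examined, such as PECAM1 and CDH5, was expressed and tested, and 9 of them were lower at 48H with an adjusted p under 0.05, none by as much as 1.4-fold. Of all tested genes, 10.4% had an adjusted p under 0.05 in this comparison whatever their fold, 5.14% higher and 5.29% lower. The pan-leukocyte marker PTPRC had 0 to 3 raw counts in every library, and the T cell marker CD3E and the B cell marker MS4A1 had 0 in all. The 17 leukocyte markers summed to 624 to 705 normalised counts in CTRL, 679 to 726 at 24H and 714 to 745 at 48H. Most of this sum was CD68, and 13 of the 17 markers stayed under 10 raw counts in every library. Besides CD68, the markers above that level were CD14 with 21 to 44 raw counts, ITGAX with 20 to 33 and LYZ with 0 to 12. TMAO 48H replicate 3 stood apart in several epithelial and keratinocyte markers, named after their values were seen. The basal keratin KRT5 had 1463, 1113 and 125 normalised counts at 48H and 759 to 1622 in the CTRL and 24H libraries. Its partner KRT14 had 1016, 796 and 67.5 at 48H and 550 to 1061 in the other groups. The adhesion molecules EPCAM and CDH1 were likewise low in that library, at 37.8 and 34.3 normalised counts, against 201 to 288 and 84.2 to 155 in the other 8. Without TMAO 48H replicate 3, 0 of the 6 tested chemokines were called at 24H, 3 at 48H and 5 between the time-points, the call of CXCL1 being lost.

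In untreated HMEC-1 the chemokine transcripts spanned more than 3 orders of magnitude per length. CXCL12 was the highest of the 10, at 3405 ± 216 (SD, n = 3) normalised counts per kilobase of its median protein-coding transcript. Across its 6 annotated transcripts of 404 to 3532 bases the CXCL12 level ran from 828 to 7236, and its lowest value still lay above that of every other member. CCL2 followed at 314 ± 27.7 (SD, n = 3), then CXCL16 at 140 ± 19.3 and CXCL1 at 127 ± 26.3 normalised counts per kilobase. CXCL16 and CXCL1 overlapped in their libraries and were not distinguishable in level, and with its shortest transcript CXCL16 would reach 396, above CCL2. CCL5 stood at 29.3 ± 6.63 and CXCL2 at 20.8 ± 0.600 (SD, n = 3). CXCL3 (5.23), CXCL11 (3.29), CX3CL1 (2.09) and CXCL10 (0.565) formed the bottom of the order on the same scale. The CXCL11 libraries overlapped with those of CXCL3, CX3CL1 and CXCL10, so that order is not resolved. By raw abundance CXCL12 made up 79.8% to 82.2% of the normalised counts of the 10 genes in CTRL, 81.7% to 84.0% at 24H and 63.3% to 67.6% at 48H. The other 9 genes together had 683 ± 65.1, 613 ± 28.4 and 1012 ± 22.9 (SD, n = 3) normalised counts in CTRL, at 24H and at 48H.

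**Figure D1:**
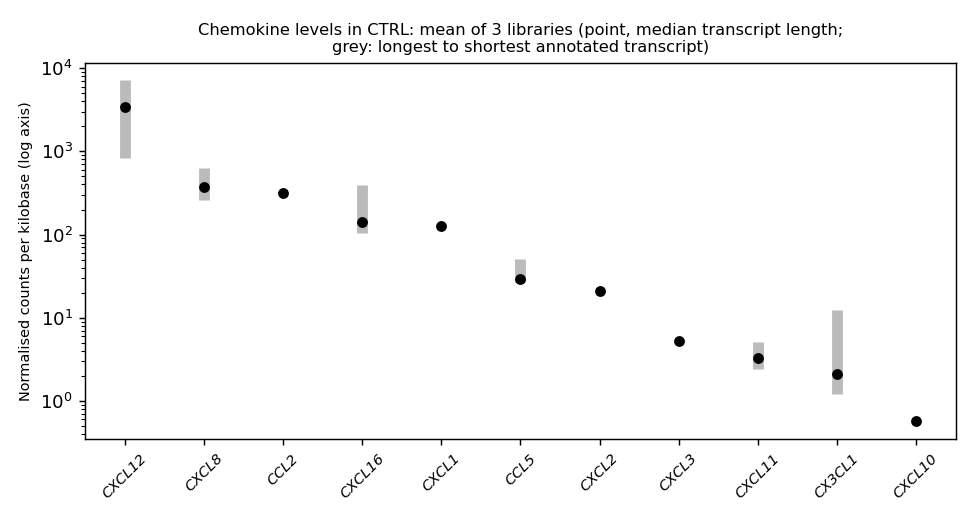
Level of the 10 chemokines, and of CXCL8 for comparison, in CTRL, as normalised counts per kilobase on a logarithmic axis. Points are means of 3 libraries at the median protein-coding transcript length, and grey bars run from the longest to the shortest annotated transcript; CXCL12 leads at 3405 and CXCL10 is lowest at 0.565.

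At 24H, 0 of the 6 tested chemokines were called, a call being an adjusted p under 0.05 in edgeR's quasi-likelihood test together with at least a 1.4-fold difference. Across all tested genes 0.0475% were called in this comparison. One chemokine, CXCL2, had an unadjusted p under 0.05, as did 7.24% of all tested genes, and DESeq2 called 0 of the 4 to which it gave an adjusted p. At 48H, CCL2 and CXCL16 rose and CXCL12 fell, 3 of 6, against 1.80% of all tested genes, with 0.882% rising and 0.916% falling. At an unadjusted p under 0.05 stood 5 of the 6, beside 25.8% of all tested genes. The 6 log2 fold changes had a median of -0.23 at 24H and 0.47 at 48H, beside -0.00042 and 0.0040 over all tested genes. Between the time-points, 48H against 24H, all 6 were called, 5 higher and CXCL12 lower. This compares with 1.71% of all tested genes, 0.862% higher and 0.848% lower. Their median log2 difference was 0.77, beside 0.0040 for all genes. Without TMAO 24H replicate 1 the count between the time-points was 3 (CCL2, CCL5 and CXCL12), without TMAO 24H replicate 3 it was 3 (CCL2, CXCL12 and CXCL16), and without TMAO 48H replicate 2 it was 3 (CCL2, CCL5 and CXCL12). The libraries of the compared groups did not overlap for 1 of the 6 at 24H, for 4 at 48H and for 6 between the time-points. The same held for 14.2%, 27.8% and 27.6% of all tested genes. The 24H and 48H comparisons share the CTRL libraries, and the contrast of 48H with 24H is the direct test of whether the time-points differ.

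**Figure D2:**
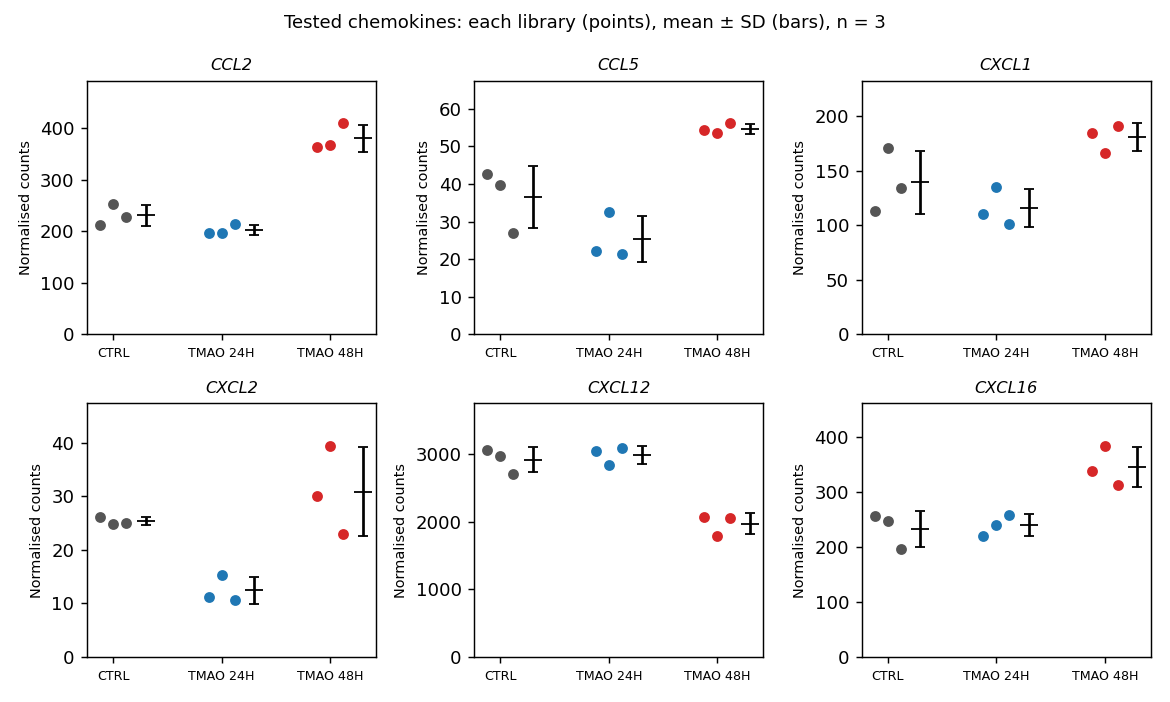
Normalised counts of the 6 tested chemokines in each library, by group, with mean ± SD of 3 libraries beside the points and axes starting at 0. CCL2 lies at 364 to 410 at 48H against 213 to 254 in CTRL, and CXCL12 at 1791 to 2073 against 2715 to 3072.

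**Figure D3:**
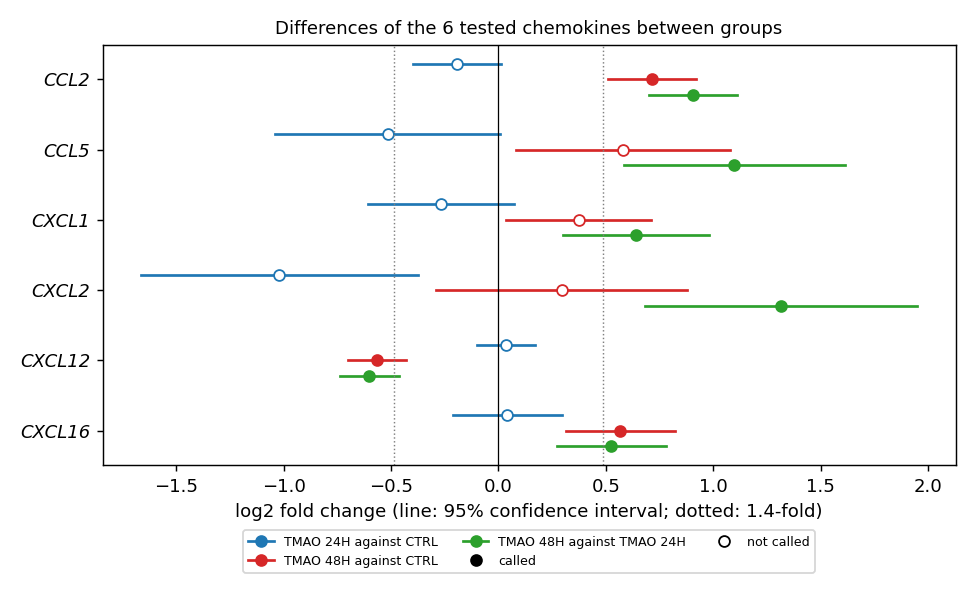
log2 fold changes of the 6 tested chemokines in the 3 comparisons, with 95% confidence intervals as lines and dotted lines at 1.4-fold in either direction. Filled points were called: none at 24H, CCL2, CXCL16 and CXCL12 at 48H against CTRL, and all 6 at 48H against 24H.

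Among the CC ligands, CCL2, which draws monocytes through CCR2, had 213, 254 and 229 normalised counts in the CTRL libraries, 197, 198 and 214 at 24H, and 364, 368 and 410 at 48H. Every 48H library lay above all the others, while CTRL and 24H overlapped at the edge. CCL2 rose at 48H by 0.72 on the log2 scale (SE 0.0947, adjusted p = 0.000580), a 1.64-fold increase with a 95% confidence interval of 1.42 to 1.89. From 24H to 48H it rose by 0.91 (SE 0.0952, adjusted p = 5.97e-05), or 1.87-fold. At 24H the log2 fold change was -0.19 (SE 0.0951, adjusted p = 0.719), with an interval of 0.760 to 1.01 in fold. Both CCL2 calls were kept when any 1 of the 9 libraries was left out.

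CCL5, which attracts T cells and monocytes, had 42.6, 39.6 and 27.1 normalised counts in CTRL, 22.3, 32.5 and 21.4 at 24H, and 54.4, 53.4 and 56.1 at 48H. The 48H libraries were tightly grouped and above the rest, whereas CTRL and 24H overlapped. Against CTRL the CCL5 difference at 48H did not pass the test (log2 0.58, SE 0.231, adjusted p = 0.128), and its interval ran from 1.06-fold to 2.11-fold. At 24H it was -0.52 (SE 0.243, adjusted p = 0.699). Between 24H and 48H CCL5 rose 2.14-fold (log2 1.10, SE 0.238, adjusted p = 0.0129). This call rested on TMAO 24H replicate 3: without it the log2 difference was 0.98 with an adjusted p of 0.0673.

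CXCL1, CXCL2 and CXCL3 are neighbouring genes on chromosome 4 whose products attract neutrophils through CXCR2. Their start sites are shown because the 3 genes carry the same kappaB-like run at nearly the same distance upstream. Promoter windows, from 250 bases before to 50 after the start, were taken from RefSeq (GRCh38.p14), where 6 of the 10 members matched (CXCL1, CXCL2, CXCL3, CXCL10, CXCL11 and CXCL12), while CCL2, CCL5, CXCL16 and CX3CL1 had no entry in the table used. Capitals mark a match to GGGNNNTTCC, searched on both strands, and each sequence reads 5′ to 3′ on the strand of its gene.
CXCL1: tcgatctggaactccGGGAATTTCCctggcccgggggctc
CXCL2: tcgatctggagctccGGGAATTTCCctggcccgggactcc
CXCL3: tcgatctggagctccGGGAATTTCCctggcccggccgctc
They lie at chr4:73869299-73869338 on the plus strand, and at chr4:74099249-74099288 and chr4:74038744-74038783 on the minus strand. The match starts at position -79 from the start site in CXCL1 and CXCL3 and at -78 in CXCL2, and in all 3 an overlapping match shifted by 1 base was found on the opposite strand. The pattern GGGNNNTTCC, on either strand, occurs in 6.52% of the 35116 promoter windows of the same length, and a match is only a description of the sequence. How often the exact run shared by the 3 genes occurs was not counted.

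CXCL1 had 113, 170 and 134 normalised counts in CTRL, 110, 135 and 102 at 24H, and 184, 166 and 191 at 48H. CTRL replicate 2 exceeded the lowest 48H library, so these groups overlapped, while 24H and 48H did not. CXCL1 rose from 24H to 48H by 0.64 on the log2 scale (SE 0.158, adjusted p = 0.0258), or 1.56-fold. It did not pass against CTRL at 24H (-0.27, SE 0.158, adjusted p = 0.786) or at 48H (0.37, SE 0.157, adjusted p = 0.151, interval 1.02-fold to 1.64-fold). The time-point call was the most fragile of the 6, being lost in 5 of the 9 fits that left out a library. Its adjusted p was 0.0811 without TMAO 24H replicate 1, 0.113 without TMAO 24H replicate 3, and 0.0517, 0.0543 and 0.0617 without TMAO 48H replicates 1, 2 and 3.

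CXCL2 had the largest log2 fold change of the 6 tested members at 24H. It had 26.1, 24.8 and 25.1 normalised counts in CTRL, 11.1, 15.3 and 10.7 at 24H, and 30.1, 39.4 and 22.9 at 48H. All 24H libraries lay below all CTRL and 48H libraries, and CTRL and 48H overlapped. The raw counts behind the 24H group were 10, 17 and 12, so counting error is sizeable. At 24H the log2 fold change was -1.02 (SE 0.298), a 0.494-fold level with an interval of 0.316 to 0.770. The unadjusted edgeR p was 0.00447, but over all genes the adjusted p was 0.474, so this difference did not pass. CXCL2 rose 2.48-fold from 24H to 48H (log2 1.31, SE 0.294, adjusted p = 0.0151, interval 1.60 to 3.85). At 48H against CTRL it did not pass (0.29, SE 0.271, adjusted p = 0.538). Without TMAO 24H replicate 1, TMAO 24H replicate 3 or TMAO 48H replicate 2 its time-point call was lost, with adjusted p of 0.0605, 0.0727 and 0.0916 respectively.

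CXCL3 had raw counts of 3, 7 and 7 in CTRL, 5, 3 and 4 at 24H, and 3, 10 and 6 at 48H. The 3 groups overlapped, and the ratio of 48H to CTRL was 1.18 with a counting interval of 0.581 to 2.42. Because the transcripts are alike, reads could have been split between these paralogs. Over the aligned bases, with gaps left out, CXCL1 and CXCL2 were 90.6% identical, CXCL2 and CXCL3 83.4%, and CXCL1 and CXCL3 81.8%. Exact runs of 50 bases were shared less, making up at most 5.73% of those of either transcript in any pair. When the counts of the 3 genes were summed, the total rose from 24H to 48H by 0.72 on the log2 scale (SE 0.141, adjusted p = 0.00679). The same sum did not pass at 24H (-0.37, adjusted p = 0.620) or at 48H (0.35, adjusted p = 0.125) against CTRL.

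CXCL8, the best known neutrophil chemokine and the most abundant ligand outside the 10, had 467, 442 and 431 normalised counts in CTRL, 417, 323 and 316 at 24H, and 522, 379 and 462 at 48H. It did not pass in any comparison (adjusted p = 0.546, 0.925 and 0.0885). Of 36 further ligands listed, 35 were found in the table, 23 of them had no count in any library, and only CXCL8 and CXCL5 were tested, with neither called.

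CXCL10 and CXCL11, the interferon-inducible ligands of CXCR3 on activated T cells, were close to the detection limit. CXCL10 had 0, 1 and 1 raw counts in CTRL, 0, 4 and 2 at 24H, and 5, 4 and 3 at 48H. All 48H libraries exceeded the CTRL libraries, with 12 counts in total against 2, a ratio of 6.34 whose interval for counting error alone was 1.41 to 58.3. With the expression filter removed, 21216 genes were fitted and the adjusted p for CXCL10 at 48H was 0.183, so it was not called. CXCL11 had 8, 4 and 0 raw counts in CTRL, 6, 0 and 4 at 24H, and 4, 2 and 3 at 48H. These groups overlapped, and the 48H to CTRL ratio was 0.792 with an interval of 0.295 to 2.05. The promoter stretches of both genes are shown because they carry the letters of kappaB-like (GGGNNNTTCC) and, in CXCL10, interferon-response (GAAANNGAAA) elements, each in capitals.
CXCL10 interferon-response-like: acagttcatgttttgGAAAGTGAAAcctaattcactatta
CXCL10 kappaB-like: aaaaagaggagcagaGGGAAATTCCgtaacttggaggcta
CXCL11 kappaB-like: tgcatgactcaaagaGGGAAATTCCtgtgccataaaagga
They span chr4:76023694-76023733, chr4:76023650-76023689 and chr4:76036122-76036161 of GRCh38.p14 on the minus strand, and the matches start at -221, -177 and -76 from the start sites. GAAANNGAAA, searched on both strands, was found in 3.57% of all promoter windows. The AP-1 letters TGANTCA, which read the same on both strands, were found just upstream of the kappaB-like run in CXCL11, from -87 to -81, and in 7.71% of all windows.

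**Figure D4:**
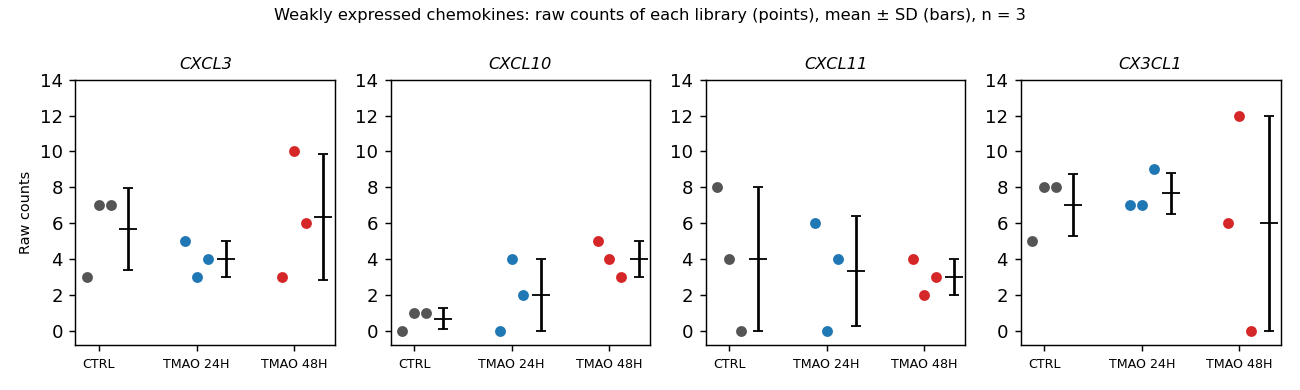
Raw counts of CXCL3, CXCL10, CXCL11 and CX3CL1 in each library, by group, with mean ± SD of 3 libraries beside the points. No library exceeds 12 counts, and only for CXCL10 do the 48H libraries (3 to 5) lie above all CTRL libraries (0 or 1).

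CXCL12, the ligand of CXCR4 and the most abundant chemokine of these cells, was the only tested member called lower, at 48H against both CTRL and 24H. It had 3072, 2983 and 2715 normalised counts in CTRL, 3054, 2840 and 3089 at 24H, and 2073, 1791 and 2061 at 48H. All 48H libraries lay below every other library, whereas CTRL and 24H overlapped. At 48H CXCL12 fell by 0.57 on the log2 scale (SE 0.0629, adjusted p = 0.000145), to 0.675-fold with an interval of 0.615 to 0.742. From 24H to 48H it fell by 0.60 (SE 0.0630, adjusted p = 5.94e-05). The 24H value was 0.034 (SE 0.0627, adjusted p = 0.960), with an interval of 0.933 to 1.12 in fold. Both calls were kept without any 1 of the 9 libraries. Fewer cells that express a gene and less of its RNA per cell cannot be told apart in these bulk libraries. No GGGNNNTTCC, GAAANNGAAA or TGANTCA run was found in the CXCL12 window, which held 3 copies of GGGCGG, letters present in 45% of all windows.

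CXCL12 moved in the same direction as part of the fibroblast and mural markers. These 11 genes, of which 8 were tested, summed to 30905 to 35738 normalised counts in CTRL, 31150 to 33587 at 24H and 20515 to 22501 at 48H. Most of this sum was COL1A1 and COL1A2, with CTRL means of 20519 and 8936, so its fall is mainly theirs. Of the 8 tested, 1 was called higher and 2 lower at 48H, beside 0.882% and 0.916% of all tested genes. The other tested markers of this list were not called. COL1A1 (-0.67, adjusted p = 2.15e-05) and COL1A2 (-1.08, adjusted p = 5.95e-06), the chains of type I collagen, fell at 48H, and ACTA2 rose by 0.74 (adjusted p = 0.00194). Of the 11 markers, 3 stayed under 10 raw counts in every library: DES and the fibroblast markers DCN and LUM, these last at 0 to 2. The others were expressed, COL3A1, PDGFRB and CSPG4 with CTRL means of 1018, 1453 and 1694 normalised counts. ACTA2, RGS5 and PDGFRA averaged 126, 109 and 10.5 in CTRL. The part of these genes in the CXCL12 result was not tested.

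CXCL16 and CX3CL1 are the chemokines made as transmembrane proteins, which can hold leukocytes directly or be shed. CXCL16 had 257, 247 and 196 normalised counts in CTRL, 220, 241 and 259 at 24H, and 338, 385 and 314 at 48H. The 48H libraries were above all others, and CTRL and 24H overlapped. CXCL16 rose at 48H by 0.57 on the log2 scale (SE 0.118, adjusted p = 0.00902), or 1.48-fold with an interval of 1.24 to 1.77. Against 24H the rise was 0.53 (SE 0.117, adjusted p = 0.0150), and at 24H against CTRL the value was 0.041 (SE 0.118, adjusted p = 0.978). The call against CTRL was lost without CTRL replicate 3, when the rise was 0.45 and under 1.4-fold, and without TMAO 48H replicate 2, when the adjusted p was 0.0540. The call between time-points was lost without TMAO 24H replicate 1 (adjusted p = 0.0545), TMAO 24H replicate 2 (0.0521) or TMAO 48H replicate 2 (0.0833). Of the 2794 exon bases of CXCL16, 85 are shared with MED11 on the opposite strand, and strand use in the counting is not given in the sources used here, so a small part of its reads may belong to MED11.

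CX3CL1, which captures monocytes and natural killer cells through CX3CR1, had 5, 8 and 8 raw counts in CTRL, 7, 7 and 9 at 24H, and 6, 12 and 0 at 48H. The groups overlapped throughout, and the 48H to CTRL ratio was 0.905 with an interval of 0.455 to 1.78. This interval covers counting error only and leaves out the spread between libraries, which at 48H includes the 0 of TMAO 48H replicate 3. At these counts a change of CX3CL1 is poorly bounded.

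The receptors for these ligands were mostly silent in the endothelial cells. Of 23 receptors listed, 4 were tested and 0 were called by edgeR in any comparison (0 also at an unadjusted p under 0.05), and 7 had no count in any library. CCR2 and CXCR3, the receptors of CCL2 and of CXCL10 and CXCL11, had 0 counts in all 9 libraries. A count of 0 in a single library would allow up to 3 expected counts, and 0 in all 9 allows fewer per library. These receptors were named after their values were seen. CXCR4, the receptor of CXCL12 and the most abundant one, had 144, 130 and 87.2 normalised counts in CTRL, 124, 120 and 138 at 24H, and 155, 99.0 and 122 at 48H. The groups overlapped, and its log2 fold change at 48H was 0.056 (SE 0.193, adjusted p = 0.894). ACKR4, a scavenger receptor of other chemokines, followed at 67.8, 57.4 and 79.2 normalised counts in CTRL and was not called.

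Of 11 listed enzymes that trim or release chemokines, 7 were tested, and at 48H MMP2 was called lower while 3 more were lower with an adjusted p under 0.05 at less than 1.4-fold. Of all tested genes, 0.916% were called lower in this comparison and 5.29% were lower with an adjusted p under 0.05 whatever their fold. MMP2, a matrix metalloproteinase that can inactivate CXCL12, had 18220, 17738 and 15252 normalised counts in CTRL, 17135, 17071 and 18899 at 24H, and 7489, 7985 and 7982 at 48H. It fell by 1.13 on the log2 scale at 48H (SE 0.0655, adjusted p = 2.07e-06), with no overlap between groups. ANPEP (CD13) and DPP4 (CD26), peptidases that clip the amino terminus of chemokines such as CXCL11 and CXCL12, had log2 fold changes of -0.44 (adjusted p = 0.000961) and -0.29 (adjusted p = 0.00804) at 48H, and ANPEP fell by 0.51 from 24H to 48H, enough to be called (adjusted p = 0.000242). ADAM10 and ADAM17, the sheddases of CXCL16 and CX3CL1, were named after their values were seen and did not pass at 48H (0.069, adjusted p = 0.266, and 0.074, adjusted p = 0.272).

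Among 23 genes of the NF-kB pathway, all tested, RELB and TLR3 were called higher at 48H, 0 were called lower, and 2 more (NFKBIA and CHUK) were higher with an adjusted p under 0.05 alone. The 2 calls among 23 stand beside 0.882% of all tested genes called higher. In all, 4 of the 23 were higher with an adjusted p under 0.05, beside 5.14% of all tested genes. RELB, a subunit of the non-canonical pathway, had 192, 152 and 180 normalised counts in CTRL, 162, 142 and 168 at 24H, and 283, 283 and 232 at 48H, a rise of 0.61 at 48H (SE 0.123, adjusted p = 0.00791). TLR3, a sensor of double-stranded RNA, rose by 0.63 (SE 0.101, adjusted p = 0.00194). The median log2 fold change of the list at 48H was 0.071, beside 0.0040 over all genes.

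Of 20 genes linking interferon to chemokines, 17 were tested, and 1, IFIH1, was called higher at 48H, with 4 others higher at an adjusted p under 0.05 alone and 0 lower. These 5 of 17 stand beside the same 5.14% of all tested genes, and the 1 call beside 0.882% of all tested genes called higher. IFIH1, a cytoplasmic sensor of double-stranded RNA, had 297, 335 and 257 normalised counts in CTRL, 244, 217 and 265 at 24H, and 492, 508 and 509 at 48H. It rose by 0.76 at 48H (SE 0.103, adjusted p = 0.000637). DDX58 (RIG-I), another RNA sensor, had a log2 fold change of 0.38 (adjusted p = 0.00511). The interferon genes IFNB1, IFNG and IFNL1 had 0 counts in all libraries.

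**Figure D5:**
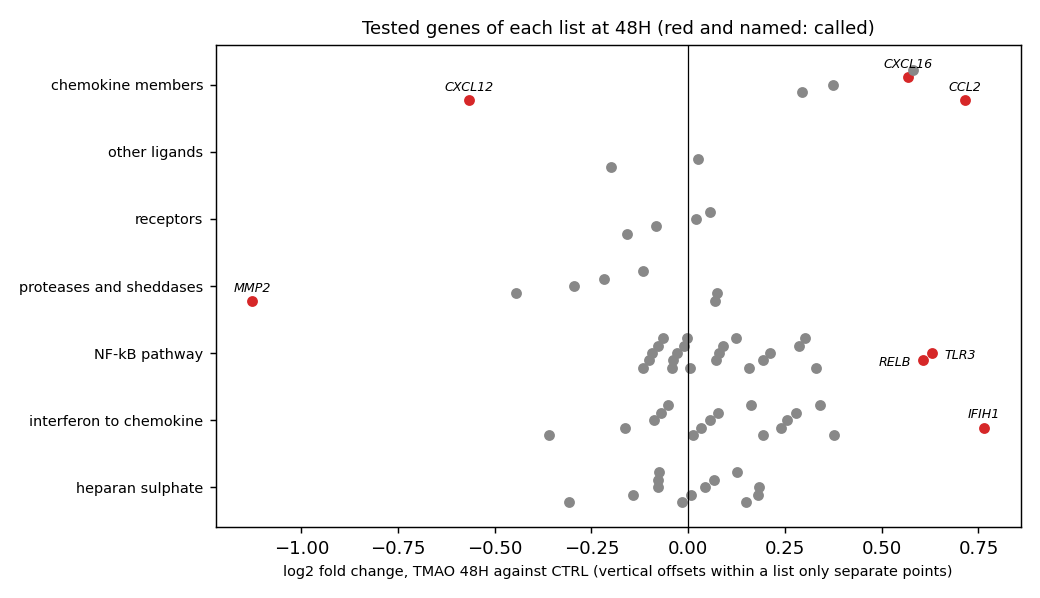
log2 fold changes at 48H against CTRL of the tested genes among the 10 chemokines and in 6 lists (other ligands, receptors, proteases and sheddases, NF-kB, interferon and heparan sulphate), one point per gene, with called genes in red and named. Called genes are CCL2 and CXCL16 (higher) and CXCL12 (lower) among the chemokines, MMP2 (lower), RELB, TLR3 and IFIH1 (higher), and none among other ligands, receptors or heparan sulphate genes.

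The genes most alike each chemokine across the 9 libraries were found by the root mean square difference of log2 normalised counts, each gene centred at its CTRL mean, among 12317 or 12318 genes. CCL2 lay nearest to DNAJC6 (0.094), IFIT3 (0.099) and IFIH1 (0.12). CXCL12 had the closest neighbours, NOX4 (0.037), PLAT (0.049) and PLXNA4 (0.052). NOX4, an NADPH oxidase, averaged 448, 471 and 299.7 normalised counts in CTRL, at 24H and at 48H. CXCL16 lay nearest to OAS3 (0.075), PARP9 (0.11) and CYP27A1 (0.11). Distances were larger for the weaker members: the nearest were P2RX7, PSG4 and ISG15 to CCL5 (0.23 to 0.24), FAH, PTP4A3 and IL1RAP to CXCL1 (0.14 to 0.15), and FOS and ST7-AS1 to CXCL2 (0.29 and 0.34). FOS, an immediate early transcription factor, averaged 178, 80.8 and 209 normalised counts in CTRL, at 24H and at 48H. These are descriptions of likeness over 9 libraries, without a test.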

How the data were processed

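Total RNA of HMEC-1 was sequenced and, per the study's methods, processed with nf-core RNAseq 3.6, and Trim Galore is named in the submitters' processing notes. The aligner, quantifier, genome build, gene annotation and strand setting are not given in the sources used here. The values deposited by the authors are estimated counts per gene (expected counts that need not be whole), and they were rounded to whole numbers. All 9 columns were matched to samples by their descriptions. All 9 libraries were fitted together in edgeR 4.0.16 (limma 3.58.1, R 4.3.3) with filterByExpr, TMM factors, the quasi-likelihood F test and Benjamini-Hochberg adjustment over 14740 genes, and genes were called at an adjusted p under 0.05 and at least 1.4-fold. The fit was tested on simulated counts with known changes. The study used DESeq2, which was run as an alternative (version 1.42.0), with other filters, factors, sample choices and each library left out. The standard error is the absolute log2 fold change divided by the square root of F, and intervals are at 95 percent. Ratios of raw counts carry exact conditional binomial intervals, which cover counting error only.

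Totals per library of 25205756 to 36927373 counts set the precision, and the 4 untested members had at most 12 counts in any library. The study states in general that its data came from independent experiments, and neither it nor the labels tie the sequenced libraries to separate cultures. The p-values therefore judge differences against a spread between libraries that may be technical. With 3 against 3 an exact permutation test could not go below 0.1. Lengths and exon overlaps came from GENCODE 29 and promoters from RefSeq GRCh38.p14. The gene models behind the counts may differ from these, which bears on the levels per kilobase and the overlap of CXCL16 with MED11. Symbols are those of the file, where CXCL8 is listed as IL8 and CCL4L2 was not found. Named were all 10 members, the called genes and at most the 3 smallest p values of each other list and comparison, the most abundant ligands and receptors, and the 3 genes nearest each called member among those with a mean of 50 or more, and a few genes that this rule names are not reported here. The members and lists were chosen with earlier results of these data known.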

Additional observations from a re-analysis of the deposited data

Results flagged for a closer look

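For all 6 tested chemokines the difference from CTRL was not the same at the 2 time-points, by a test of the difference itself, which is the contrast of 48H with 24H because the CTRL libraries cancel. Because no control is matched in time, time in culture and TMAO cannot be told apart in this contrast. On the log2 scale the difference at 48H less that at 24H was 0.91 for CCL2, 1.10 for CCL5 and 0.64 for CXCL1. It was 1.31 for CXCL2, -0.60 for CXCL12 and 0.53 for CXCL16, with edgeR adjusted p from 5.94e-05 (CXCL12) to 0.0258 (CXCL1). In each case all 3 libraries of one time-point lay on one side of all 3 of the other, as did those of 27.6% of all tested genes. For CCL2 and CXCL12 the call was kept without any 1 library, whereas those of CCL5, CXCL1, CXCL2 and CXCL16 were each lost without at least 1. With 3 libraries a group, no test for a single outlying library was run on the chemokines. TMAO 48H replicate 3, which stood apart in keratinocyte markers, had the lowest CXCL2 and CXCL16 values of its group (22.9 and 314 normalised counts). Its CCL2, CCL5 and CXCL1 values were the highest of the group (410, 56.1 and 191), and its CXCL12 value (2061) lay between the others. Among the untested members, it alone had 0 raw counts of CX3CL1, the other libraries having 5 to 12.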

How the results depend on the processing

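Across the alternatives, 0 chemokines were called at 24H and 2 to 3 at 48H, and the number called between the time-points was 3 to 6 when libraries were left out one at a time, being 3 without TMAO 24H replicate 1, TMAO 24H replicate 3 or TMAO 48H replicate 2. DESeq2 called 5 between the time-points because it gave CXCL2 no adjusted p. Directions reversed only for values near 0 at 24H that were not called: CXCL12 was -0.013 without CTRL replicate 3 and CXCL16 was -0.066 without CTRL replicate 3 and -0.018 without TMAO 24H replicate 3, their ranges with a library left out being -0.013 to 0.071 and -0.066 to 0.12 on the log2 scale. Over all genes, 7, 265 and 252 were called at 24H, at 48H and between the time-points, and 14, 1537 and 1110 with no fold threshold. At 24H the count was 13 with DESeq2, 3 without CTRL replicate 2 and 0 without TMAO 24H replicate 2. The library rich in ribosomal RNA gene counts was TMAO 24H replicate 1, and removal of these genes before scaling left 0, 3 and 6 chemokines called.

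No pairing by replicate number was visible: same-numbered libraries of different groups had correlations of -0.21 to 0.088 over 9 pairs, and differently numbered ones -0.12 to 0.28 over 18 pairs. A library correlated best with its own number in 3 of 18 comparisons. With 3 libraries a group, these values cannot show that the samples were unpaired. With the replicate number as a block, 0, 3 and 6 chemokines were called in the 3 comparisons, and 1, 214 and 213 genes in all. Changes of the 4 weakest genes are limited by depth.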

Other observations

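Chemokines are displayed to leukocytes on heparan sulphate, and the 13 genes listed for its synthesis and core proteins were all expressed. At 48H 0 were called, and 1, HSPG2 (perlecan), was lower with an adjusted p under 0.05 alone (log2 -0.31, SE 0.0755, adjusted p = 0.0209), with 19875 against 24607 normalised counts in CTRL. For 8 of the 13 the libraries of 48H and CTRL did not overlap, beside 27.8% of all tested genes, and the median log2 fold change was 0.0063. The hypoxia factors HIF1A, EPAS1 and ARNT, listed because HIF1A drives CXCL12 in other endothelial cells, were not called at 48H, with log2 fold changes of 0.051, 0.073 and 0.095. At 48H 6 of the 13 heparan sulphate genes and 0 of the 3 hypoxia factors had an unadjusted p under 0.05, as did 25.8% of all tested genes. The 8 epithelial and keratinocyte markers were all expressed and 0 were called at 48H, where KRT5, KRT14, EPCAM and CDH1 were low in replicate 3 alone, KRT18 being lower with an adjusted p under 0.05 alone (log2 -0.24, adjusted p = 0.0131), with summed levels, mostly KRT18, of 23300 to 25502 normalised counts in CTRL and 19197 to 21731 at 48H, and their part in the chemokine results was not tested.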
